A study of Mus musculus with 6 samples.

Results

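Interferon response genes are the genes that cells switch on when interferons reach them, and 39 such mouse genes were examined in splenic plasma cells. They were matched by gene symbol, and a gene was kept where 3 or more of the 6 libraries reached an FPKM (fragments scaled to transcript length and to mapped depth) of 1. The filter kept 22 of the 39 named genes, all of which were in the files, and 9087 of 24346 gene symbols in all. Of these 22 genes, Isg15 was higher in IgM than in IgG1 plasma cells and Ifitm3 was lower, and the other 20 missed the threshold of limma. That is 1 of 22 in each direction, where 1.76% of all genes tested were higher and 4.26% were lower. The 17 genes that did not pass included every Ifit, Oas, Oasl and Mx gene of the set.

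Type I interferons signal through the receptor chains IFNAR1 and IFNAR2 and the kinases JAK1 and TYK2 to a complex with STAT2 and IRF9, which binds the interferon-stimulated response element in front of its target genes. Interferon gamma signals through IFNGR1 and IFNGR2 to the gamma-activated site. The target genes encode antiviral enzymes, membrane proteins that restrict viral entry or release, the ubiquitin-like modifier ISG15, GTPases and the pathway's own sensors and transcription factors. Some of them, such as Bst2, are also known for their expression in plasma cells without infection.

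IgM plasma cells (3 libraries) were compared with IgG1 plasma cells (3 libraries). Both came from B1-8germ donor B cells, which carry an antibody heavy chain specific for the hapten NP and were told apart from host cells by a congenic mark. The donor cells had been placed in wild-type C57BL/6J mice, all of which received NP-CGG in alum, and splenic donor plasma cells were sorted by isotype 7 days later. No unimmunised or interferon-treated cells were among the samples, so the levels have no baseline here. Whether a group's libraries came from different mice is not stated, so the p-values here speak only of the scatter among these libraries, which may be technical. In sorted bulk cells, fewer cells that express a gene and less RNA per cell cannot be told apart.

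Library totals of FPKM were 730695 to 806599 in IgM and 855123 to 914019 in IgG1 cells, and the approximate depth was 15.7 to 17.3 M fragments in IgM and 14.9 to 15.3 M in IgG1 libraries. All 8 plasma cell markers averaged at least 1 FPKM, with a summed level of 44301 to 50167 in IgM and 36772 to 39346 in IgG1 cells. Jchain alone gave 24812 to 28583 FPKM in IgM and 14208 to 16962 in IgG1 cells, and the other 7 summed to 18420 to 23057 in IgM and 22385 to 22564 in IgG1 cells. Most of that sum was Mzb1 and Xbp1, which with Sdc1 averaged lower in IgM cells and missed the threshold (limma adjusted p = 0.356, 0.136 and 0.429). For Xbp1 every IgM library lay below every IgG1 library, and the groups of Mzb1 and Sdc1 overlapped. Jchain (limma adjusted p = 0.00389), Tnfrsf17, Prdm1, Irf4 and Slamf7 passed the threshold as higher in IgM cells, without overlap. Mean FPKM in IgM and IgG1 cells were 622.8 and 81.88 for Tnfrsf17 (limma adjusted p = 1.23e-06) and 44.25 and 21.31 for Prdm1 (0.0222). They were 92.34 and 55.35 for Irf4 (0.0153) and 169.9 and 113.1 for Slamf7 (0.0405). The B cell markers summed to 125 to 153 FPKM in IgM and 96.9 to 124 in IgG1 cells, with Pax5 listed at 0 in all libraries. Neutrophil, T cell, NK cell, dendritic cell and erythroid markers each summed to under 10 FPKM in every library. The 8 monocyte or macrophage markers summed to 68.0 to 71.6 FPKM in IgM and 43.7 to 45.8 in IgG1 cells. Most of this was Cd68, at 56.1 to 58.8 FPKM in IgM and 34.2 to 40.9 in IgG1 cells, and the other 7 markers summed to 9.26 to 13.1 FPKM in IgM and 2.79 to 9.54 in IgG1 cells. Of these, Lyz2 had 4.77 to 8.44 FPKM in IgM and 0.160 to 5.07 in IgG1 cells, Csf1r had 1.11 to 2.14 in IgM and at most 0.0162 in IgG1 cells, and Vcam1 had 0.2305 to 1.09 in IgM and at most 0.0193 in IgG1 cells. C1qb had 1.74 to 3.38 FPKM in IgM and 1.07 to 9.06 in IgG1 cells, and C1qa had 0.140 to 1.22 in IgM and at most 0.150 in IgG1 cells. Adgre1 and Fcgr1 did not pass 0.0221 FPKM in any library. The deviation of a gene from its mean also followed transcript length, with Spearman rho of 0.15 to 0.30 over the genes tested in IgM libraries and -0.24 to -0.15 in IgG1 libraries.

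The promoters of 4 members are shown as examples, and all 4 held the motif described below. Isg15 and Ifitm3 are the pair past the threshold, in opposite directions. Bst2 is among the most abundant members, and Ifit3 was listed at 0 in 4 libraries. Isg20, the most abundant member, and Ifi44, listed at 0 in all 6 libraries, held no match in the windows searched. Each stretch is 200 bases of the gene's own strand in GRCm38.p6, from RefSeq, with 170 bases before the transcription start and 30 from it. Capitals mark matches, on either strand, to the core of the interferon-stimulated response element, searched as GAAA, any 2 bases, then GAAA again.
Isg15, chr4:156200789-156200988, minus strand: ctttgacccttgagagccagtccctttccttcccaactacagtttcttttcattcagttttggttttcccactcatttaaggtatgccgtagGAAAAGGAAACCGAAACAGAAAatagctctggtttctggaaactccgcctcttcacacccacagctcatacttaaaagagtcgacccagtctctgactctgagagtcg
Ifitm3, chr7:141010715-141010914, minus strand: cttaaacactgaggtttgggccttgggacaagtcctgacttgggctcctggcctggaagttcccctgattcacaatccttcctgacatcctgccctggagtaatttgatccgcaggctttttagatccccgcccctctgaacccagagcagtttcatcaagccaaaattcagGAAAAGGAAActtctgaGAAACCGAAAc
Bst2, chr8:71537443-71537642, minus strand: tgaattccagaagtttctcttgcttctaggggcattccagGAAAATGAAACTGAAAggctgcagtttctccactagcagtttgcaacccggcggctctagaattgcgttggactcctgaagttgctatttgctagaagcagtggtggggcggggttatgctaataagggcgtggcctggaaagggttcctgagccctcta
Ifit3, chr19:34583359-34583558, plus strand: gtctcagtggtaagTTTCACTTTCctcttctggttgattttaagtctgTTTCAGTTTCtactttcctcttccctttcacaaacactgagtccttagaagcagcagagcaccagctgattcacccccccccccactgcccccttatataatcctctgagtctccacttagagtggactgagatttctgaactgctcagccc

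Isg15 held 3 overlapping matches that began at positions -78, -72 and -66 relative to the start, all on the gene's strand. Bst2 held 2 overlapping matches, at -130 and -124. Ifit3 held 2 separate matches on the opposite strand, at -156 and -122. In Ifitm3 the 2 matches began 2 and 19 bases after the RefSeq start. Promoter windows of 300 bases (250 before and 50 after the start) were found for 32 of the 39 genes, and 18 of the 32 (56.2%) held the motif in at least 1 window, against 3.99% of all 27025 genes with a window. The share was 10 of 19 (52.6%) among members that passed the filter and 8 of 13 (61.5%) among those that did not. TTCNNNGAA, the palindromic core of the gamma-activated site, was found in 12 of the 32 (37.5%), against 9.55% of all genes with a window. It was held by 9 of the 19 members that passed and by 3 of the 13 that did not. Both motifs can share bases within a window, and a match is a string of letters, not a bound site.

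**Figure D1:**
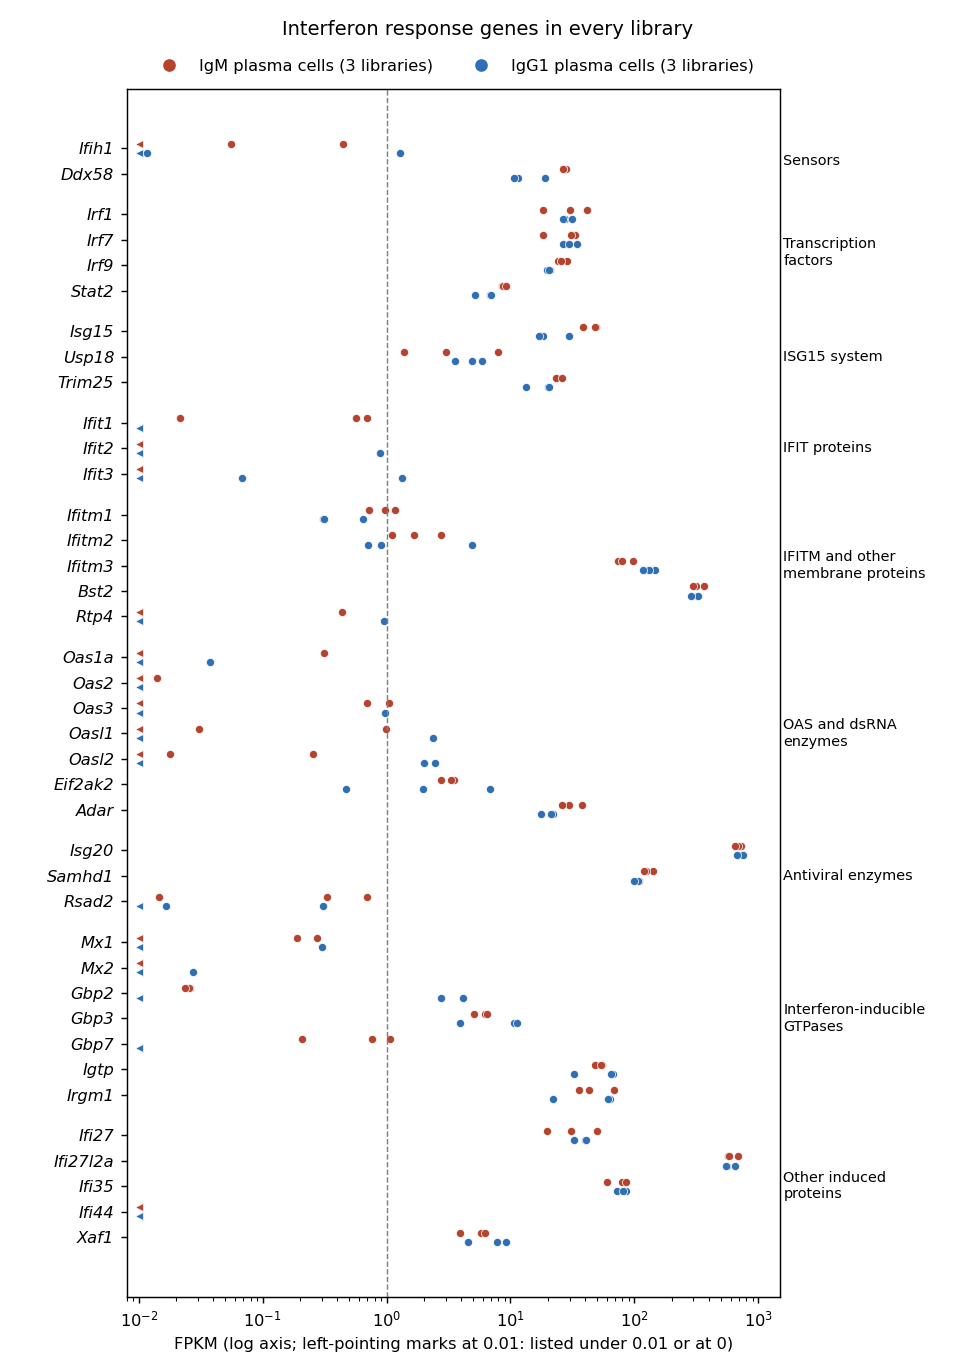
FPKM of the 39 interferon response genes in each library on a log axis, with genes grouped by role down the page and the dashed line at 1 FPKM. Isg20, Ifi27l2a and Bst2 sit at the right edge in all 6 libraries, and the Ifit, Oas, Oasl and Mx genes sit mostly left of the line or at 0.

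A few genes held most of the signal. Isg20, which encodes an exonuclease that degrades RNA, had 731.1, 685.5 and 649.7 FPKM in IgM libraries 1 to 3, against 752.0, 748.1 and 669.2 FPKM in IgG1 libraries 1 to 3. Ifi27l2a, a small interferon-induced membrane protein gene, had 572.5, 693.4 and 584.4 FPKM in IgM cells, against 556.5, 649.6 and 544.9 FPKM in IgG1 cells. Bst2, which encodes tetherin, a protein that holds budding virus at the cell surface, had 317, 366 and 299 FPKM in IgM cells, against 318, 326 and 287 FPKM in IgG1 cells. The groups overlapped for each of these genes. Their log2 differences, IgM minus IgG1 of FPKM + 1, were -0.07 for Isg20 (95% interval -0.29 to 0.15), 0.08 for Ifi27l2a (-0.18 to 0.33) and 0.07 for Bst2 (-0.18 to 0.33). None of these intervals reached beyond 0.33 in either direction, and the limma adjusted p were 0.747, 0.749 and 0.768.

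By mean FPKM, Isg20 stood at the 99.1st percentile of all gene symbols, Ifi27l2a at the 98.9th and Bst2 at the 98.2nd. Together these genes made up 70.0%, 71.8% and 71.1% of the summed FPKM of the 39 genes in IgM libraries and 69.0%, 72.1% and 72.9% in IgG1 libraries. The whole set summed to 2314, 2429 and 2156 FPKM in IgM cells and to 2357, 2390 and 2059 FPKM in IgG1 cells, so the sums overlapped. As a share of each library's total FPKM, the set was 0.317%, 0.301% and 0.285% in IgM cells and 0.276%, 0.272% and 0.225% in IgG1 cells, which did not overlap, while the library totals were larger in IgG1 cells.

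At the low end stood classical markers of an interferon response. Ifi44 was listed at 0 in all 6 libraries. Ifit1, which encodes a protein that binds foreign RNA ends, had 0.694, 0.564 and 0.0216 FPKM in IgM libraries and was listed at 0 in all IgG1 libraries. Ifit2 was listed at 0 except for 0.892 FPKM in IgG1 library 1. Ifit3 was listed at 0 except for 1.335 FPKM in IgG1 library 1 and 0.0685 FPKM in IgG1 library 3. Mx1 and Mx2, of the dynamin-like GTPase family, did not pass 0.303 FPKM in any library, and Rsad2, which encodes viperin, did not pass 0.691 FPKM. The annotation lists Mx2 as a polymorphic pseudogene, so its level is a limited readout of an interferon response. Of the 17 genes that did not pass the filter, 9 stayed under 1 FPKM in every library, and the highest single value was 4.13 FPKM, for Gbp2 in IgG1 library 1. These 17 genes summed to 3.99, 3.48 and 4.59 FPKM in IgM libraries and to 13.0, 6.20 and 1.98 FPKM in IgG1 libraries, so the IgG1 libraries lay on both sides of the IgM ones. A value listed at 0 does not show absence, since FPKM files can list a gene at 0 where an estimate failed.

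Several rare genes were seen in 1 or 2 IgG1 libraries. Gbp2, a guanylate-binding GTPase, had 0.0260, 0.0255 and 0.0234 FPKM in IgM libraries, against 4.13 and 2.75 FPKM in IgG1 libraries 1 and 2 and 0 in IgG1 library 3. Oasl2, of the oligoadenylate synthetase-like family, had 0.2565, 0 and 0.0178 FPKM in IgM libraries, against 2.01, 2.44 and 0 FPKM in IgG1 libraries. These were the genes just outside the filter, with 2 libraries at 1 FPKM or more. Gbp7, a further guanylate-binding GTPase, had 1.065, 0.207 and 0.769 FPKM in IgM libraries and was listed at 0 in all IgG1 libraries, and Ifitm1, a membrane protein gene, reached at most 1.17 FPKM in IgM and 0.651 FPKM in IgG1 libraries. The synthetase-like gene Oasl1 reached 0.998 FPKM in IgM and 2.39 FPKM in IgG1 libraries, and the synthetase gene Oas3 reached 1.045 FPKM in IgM and 0.974 FPKM in IgG1 libraries. Rtp4, Oas1a and Oas2 stayed under 1 FPKM throughout, with at least 4 libraries listed at 0. Just inside the filter, Ifitm2 reached 1 FPKM in 4 libraries, with 2.73, 1.65 and 1.11 FPKM in IgM cells and 0.7055, 4.86 and 0.900 FPKM in IgG1 cells. Eif2ak2, which encodes the kinase PKR that stops translation on double-stranded RNA, reached it in 5 libraries, with 3.49, 2.73 and 3.29 FPKM in IgM cells and 6.86, 1.97 and 0.475 FPKM in IgG1 cells.

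Neighbouring members stood at different levels. Ifi27 and Ifi27l2a lie 1927 bases apart on chromosome 12 (103434211 to 103443680, GRCm38). Ifi27l2a averaged 617 ± 66.6 FPKM in IgM and 584 ± 57.4 FPKM in IgG1 cells (SD, n = 3 each), and Ifi27 averaged 33.6 ± 15.1 FPKM in IgM and 37.9 ± 4.83 FPKM in IgG1 cells. Ifitm2, Ifitm1 and Ifitm3 lie within 55934 bases of chromosome 7 (140954837 to 141010770), where Ifitm3 was the one abundant gene. Of the 3 Gbp genes on chromosome 3 (142530342 to 142638008) only Gbp3 passed the filter. None of the 3 Ifit genes on chromosome 19, of the 5 Oas and Oasl genes on chromosome 5 or of the 2 Mx genes on chromosome 16 passed. Members of these families resemble each other in sequence, so the split of reads between them depends on the authors' counting.

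Between the isotypes, 1 of the 22 members was higher in IgM cells and 1 was lower, where 1.76% of all 9087 genes tested were higher and 4.26% lower (limma, Benjamini-Hochberg adjusted p under 0.05). In either direction that is 2 of 22, beside 6.02% of all genes tested. The log2 difference was above 0 in 12 of the 22 (54.5%), beside 53.7% of all genes tested, and the members' median was 0.06, beside 0.05. The groups did not overlap in 8 of the 22 members, 7 with IgM higher and 1 with IgM lower, where 13.5% of all genes tested had IgM higher without overlap, 13.7% had IgM lower and 27.2% had either.

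**Figure D2:**
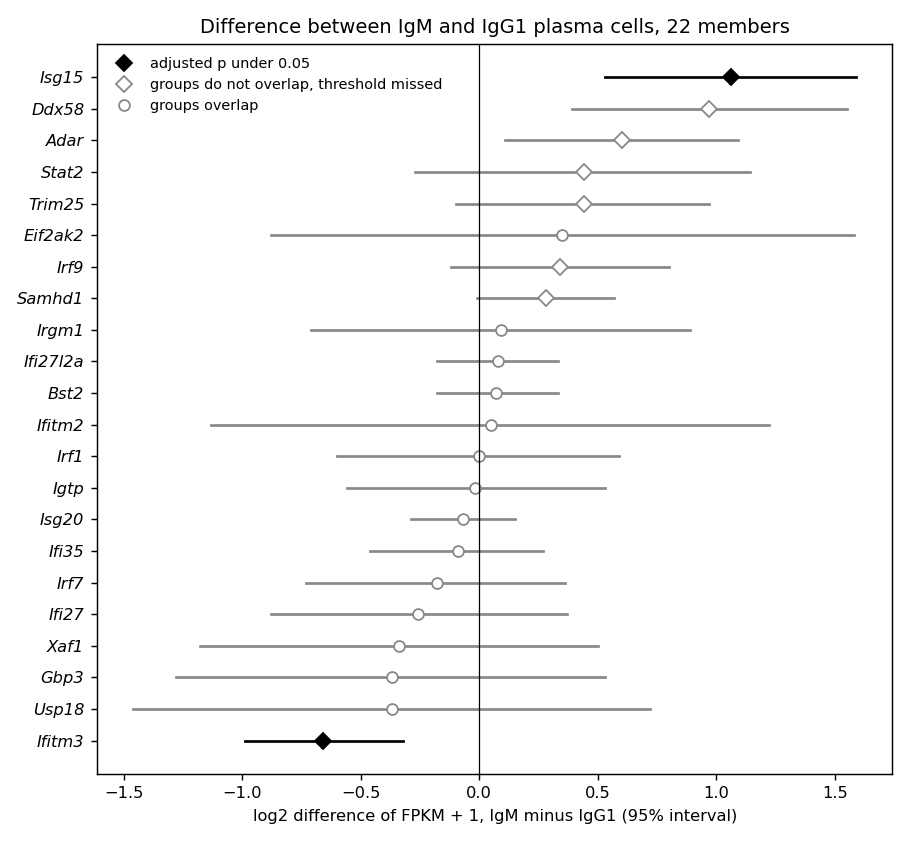
Log2 difference of FPKM + 1, IgM minus IgG1, for the 22 members that passed the filter, with 95% intervals from limma (3 libraries per group). Isg15 at 1.06 and Ifitm3 at -0.66 are the filled points past the threshold, and open diamonds are the members whose libraries did not overlap but which missed it.

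Isg15, the ubiquitin-like protein that is attached to other proteins after interferon, had 49.45, 48.3 and 38.2 FPKM in IgM libraries, against 29.9, 18.3 and 17.1 FPKM in IgG1 libraries. All IgM libraries lay above all IgG1 libraries, and IgG1 library 1 was the nearest to them. The means were 45.3 ± 6.20 FPKM in IgM and 21.8 ± 7.09 FPKM in IgG1 cells (SD, n = 3 each), a 2.08-fold higher level in IgM cells (log2 difference 1.06, SE 0.24, limma adjusted p = 0.0269). Isg15 lies on chromosome 4 from 156199424 to 156200818 in GRCm38, on the minus strand, and its exons overlap those of no other protein-coding gene in the annotation. Its value rested on about 197 to 587 fragments per library. The call ended without IgM library 1, 2 or 3 (limma adjusted p = 0.146, 0.0926 and 0.0541) and without IgG1 library 2 or 3 (0.0799 and 0.0782), and held without IgG1 library 1 (0.0126), with the difference between 0.91 and 1.30 throughout. It also ended with no filter (0.137) and with no intensity trend (0.153). The levels of Cd68, Csf1r and Vcam1 were also above all IgG1 libraries in each IgM library. Lyz2, C1qa and C1qb overlapped between the groups, and C1qb averaged 2.71 FPKM in IgM and 4.22 in IgG1 cells. The part of monocytes or macrophages in this result was not tested.

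The other genes of the ISG15 system missed the threshold. Usp18, the protease that removes ISG15, had 3.01, 1.38 and 7.99 FPKM in IgM cells, against 5.85, 4.85 and 3.60 FPKM in IgG1 cells, and the groups overlapped (log2 difference -0.37, limma adjusted p = 0.726). The difference was 0.08 without IgM library 2 and -0.88 without IgM library 3. Uba7, the ISG15-activating enzyme, is no member and was picked after its values were seen. It averaged 16.0 ± 6.72 FPKM in IgM and 27.1 ± 1.81 FPKM in IgG1 cells (SD, n = 3 each), with a log2 difference of -0.79 and a limma adjusted p of 0.124 (0.0484 to 0.410 when each library was left out, lowest without IgM library 2), and its exons overlap those of Gm20661. Of the other further genes listed for ISG15 attachment, Ube2l6 and Herc6 had log2 differences above 0, and Trim21 was lower in IgM cells without overlap. All of them missed the threshold. Trim25, a ubiquitin and ISG15 ligase that activates the RNA sensor RIG-I, had 23.4, 23.3 and 26.1 FPKM in IgM libraries, against 20.3, 13.3 and 20.35 FPKM in IgG1 libraries. Its groups did not overlap, and the difference of 0.44 missed the threshold (limma adjusted p = 0.326).

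Ifitm3, which encodes a membrane protein that blocks the fusion of viruses in endosomes, had 73.9, 97.3 and 79.7 FPKM in IgM libraries, against 146.0, 131.6 and 118.5 FPKM in IgG1 libraries. Every IgM library lay below every IgG1 library. The means were 83.6 ± 12.2 FPKM in IgM and 132 ± 13.7 FPKM in IgG1 cells (SD, n = 3 each), a 1.58-fold lower level in IgM cells (log2 difference -0.66, SE 0.15, limma adjusted p = 0.0286). Ifitm3 lies on chromosome 7 from 141009586 to 141010770, on the minus strand. The call ended without IgM library 1 or 3 (limma adjusted p = 0.149 and 0.108) and without IgG1 library 1 or 2 (0.0666 and 0.0778), and held without IgM library 2 (0.0275) or IgG1 library 3 (0.0481). It also ended after correction for transcript length and GC content (-0.39, limma adjusted p = 0.171) and under quantile normalization (-0.52, adjusted p = 0.0696). Rescaling without Jchain, the transcript of the antibody joining chain, set all libraries to an equal FPKM total counted without that gene. The call ended there too (-0.43, limma adjusted p = 0.0983), and with no filter (0.111) or no intensity trend (0.18).

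**Figure D3:**
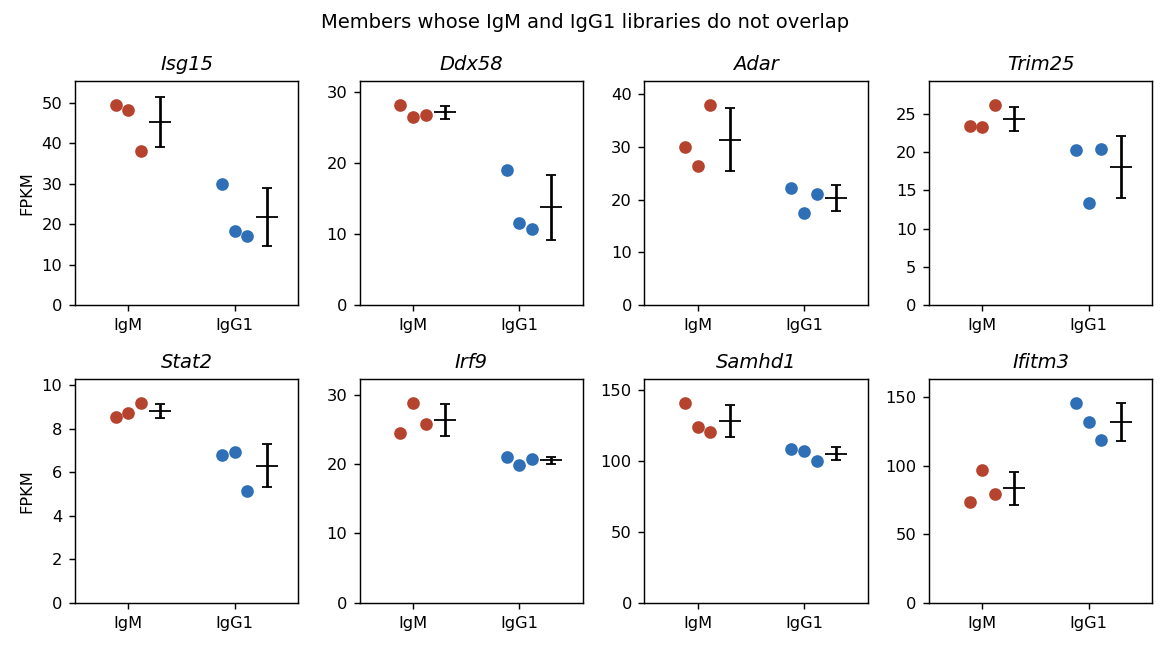
FPKM per library of the 8 members whose IgM and IgG1 libraries did not overlap, with the mean and SD beside the points (n = 3 per group). Isg15 and Ddx58 averaged 45.3 and 27.1 FPKM in IgM cells and 21.8 and 13.8 FPKM in IgG1 cells, and Ifitm3 is the gene with the lower IgM libraries.

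Among the sensors, Ddx58, which encodes the cytoplasmic RNA sensor RIG-I, had 28.1, 26.5 and 26.7 FPKM in IgM libraries, against 19.05, 11.6 and 10.7 FPKM in IgG1 libraries. The IgM libraries were tightly grouped and lay above all IgG1 libraries. The log2 difference was 0.97 (SE 0.26, 95% interval 0.39 to 1.55), and the limma adjusted p of 0.0529 missed the threshold. It passed with a pseudocount of 5 (0.0483), a filter at 5 FPKM (0.0382), rescaling without Jchain (0.0289) and without IgG1 library 1 (0.0229). It missed with no filter (0.150), with no intensity trend (0.157) and without any of the other 5 libraries (0.113 to 0.214). Ifih1, which encodes the related sensor MDA5, had 0.0552, 0 and 0.445 FPKM in IgM libraries, against 0, 0.0118 and 1.29 FPKM in IgG1 libraries, and did not pass the filter.

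Adar, which encodes the enzyme that edits adenosine to inosine in double-stranded RNA, had 29.9, 26.3 and 37.9 FPKM in IgM libraries, against 22.1, 17.5 and 21.1 FPKM in IgG1 libraries (log2 difference 0.60, 95% interval 0.11 to 1.09, limma adjusted p = 0.143). Its exons overlap those of Chrnb2 on the opposite strand, and whether the counting used strand is not given in the sources used here. Samhd1, which encodes an enzyme that breaks down deoxynucleotides, had 140.7, 123.5 and 119.8 FPKM in IgM libraries, against 108.5, 106.5 and 99.6 FPKM in IgG1 libraries (log2 difference 0.28, 95% interval -0.01 to 0.57, limma adjusted p = 0.236). In both genes the groups did not overlap, and neither difference passed the threshold.

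Of the transcription factors, Stat2 and Irf9, partners in the type I interferon complex, had non-overlapping groups and differences short of the threshold. Stat2 had 8.56, 8.75 and 9.20 FPKM in IgM libraries, against 6.80, 6.95 and 5.17 FPKM in IgG1 libraries (log2 difference 0.44, limma adjusted p = 0.478). Irf9, the DNA-binding partner, had 24.4, 28.8 and 25.8 FPKM in IgM libraries, against 21.0, 19.9 and 20.7 FPKM in IgG1 libraries (0.34, adjusted p = 0.375), and its exons overlap those of Rnf31 on the same strand.

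Irf1, a factor induced by interferon gamma, and Irf7, which amplifies type I interferon production, overlapped between the groups. Irf1 had 41.5, 30.3 and 18.2 FPKM in IgM libraries, against 27.7, 31.6 and 26.6 FPKM in IgG1 libraries. Irf7 had 33.0, 30.7 and 18.3 FPKM in IgM libraries, against 26.6, 34.7 and 29.7 FPKM in IgG1 libraries. Ifi27 had 30.9, 49.8 and 19.9 FPKM in IgM libraries, against 40.2, 41.1 and 32.3 FPKM in IgG1 libraries. IgM library 3 was the lowest of all libraries for each of them. Without it the log2 differences were 0.30, 0.07 and 0.06, with limma adjusted p of 0.605, 0.922 and 0.946. With it they were 0.00, -0.18 and -0.26. The exons of Irf1 overlap those of Gm17334 on the opposite strand.

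The interferon-inducible GTPases that passed the filter, of families that act in defence against intracellular pathogens, had 1 low IgG1 library in common. Igtp had 54.5, 48.1 and 53.5 FPKM in IgM libraries, against 67.9, 64.9 and 32.8 FPKM in IgG1 libraries. Irgm1 had 68.7, 42.9 and 35.9 FPKM in IgM libraries, against 64.2, 61.4 and 21.9 FPKM in IgG1 libraries. Gbp3 had 6.235, 5.08 and 6.45 FPKM in IgM libraries, against 10.8, 11.4 and 3.91 FPKM in IgG1 libraries. All of these genes were lowest in IgG1 library 3, where they stood 2.03-fold, 2.87-fold and 2.83-fold below the mean of the other IgG1 libraries. Without that library the log2 differences were -0.35 for Igtp, -0.40 for Irgm1 and -0.81 for Gbp3, against -0.02, 0.09 and -0.37 with it, and the limma adjusted p without it were 0.258, 0.403 and 0.199. The exons of Igtp overlap those of Irgm2 on the same strand. IgG1 library 3 was the lowest IgG1 library for 15 of the 22 members, beside 34.8% of all genes tested, and it also had the most tested genes listed at 0 (288, against 74 and 243 in IgG1 libraries 1 and 2).

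**Figure D4:**
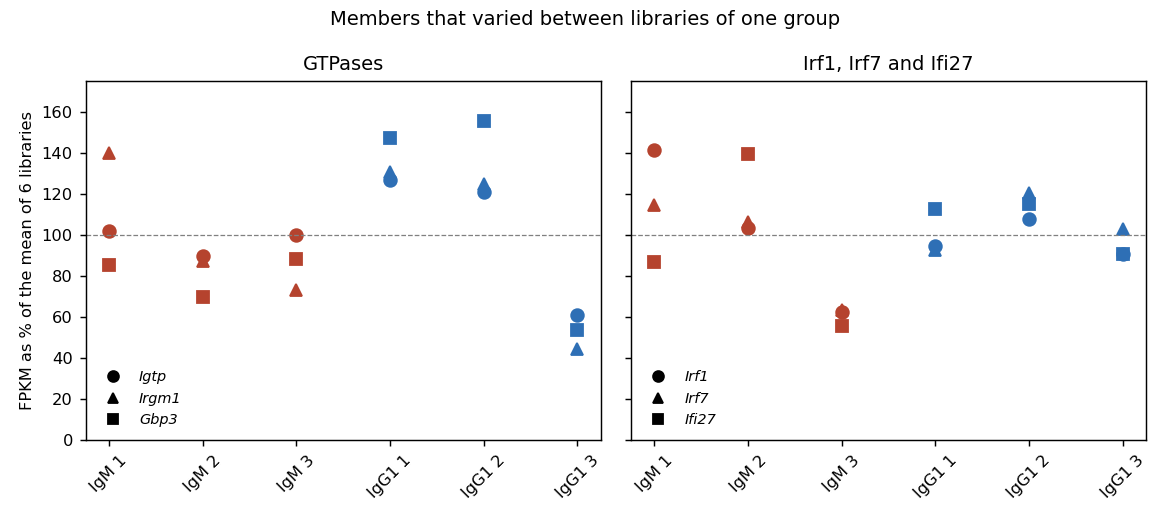
FPKM of 6 members as a percentage of the gene's mean over the 6 libraries, with GTPases on the left and Irf1, Irf7 and Ifi27 on the right (red IgM, blue IgG1). The GTPases drop together in IgG1 library 3, and Irf1, Irf7 and Ifi27 in IgM library 3.

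The remaining members that passed had overlapping groups. Ifi35, a leucine zipper protein gene, had 60.7, 79.2 and 86.1 FPKM in IgM libraries, against 85.4, 72.8 and 81.0 FPKM in IgG1 libraries (log2 difference -0.09, limma adjusted p = 0.796). Xaf1, a pro-apoptotic partner of XIAP, averaged 5.33 ± 1.23 FPKM in IgM and 7.18 ± 2.42 FPKM in IgG1 cells (SD, n = 3 each; -0.34, limma adjusted p = 0.662). Eif2ak2 and Ifitm2 had log2 differences of 0.35 and 0.05 with limma adjusted p of 0.768 and 0.970, and their 95% intervals, -0.88 to 1.58 and -1.13 to 1.22, allow differences in either direction. The exons of Ifitm2 overlap those of Gm45717.

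Transcript length moved with these differences. The 6 members with a median transcript above 3000 nt (Ddx58, Stat2, Trim25, Eif2ak2, Adar and Samhd1) all had positive differences, as did 69.8% of the 3257 genes tested of that length. Of the 7 members under 1000 nt, 4 had positive differences (Isg15, Ifitm2, Bst2 and Ifi27l2a), against 22.9% of the 945 genes tested of that length. After removal of the length and GC trends within each library, Isg15, at 756 nt, had a difference of 1.32 (limma adjusted p = 0.0180) and Ifitm3, at 678 nt, one of -0.39 (0.171). Ddx58, Adar, Trim25, Stat2 and Samhd1 were then at 0.66, 0.45, 0.13, 0.22 and 0.08, with limma adjusted p of 0.184, 0.308, 0.830, 0.771 and 0.795. Ifi27l2a, at 463 nt the shortest of the members that passed, moved to 0.47 and past the threshold (limma adjusted p = 0.0217), as it did under quantile normalization (0.37, adjusted p = 0.0462), and Bst2 stood at 0.38 after the length and GC correction (adjusted p = 0.0970).

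**Figure D5:**
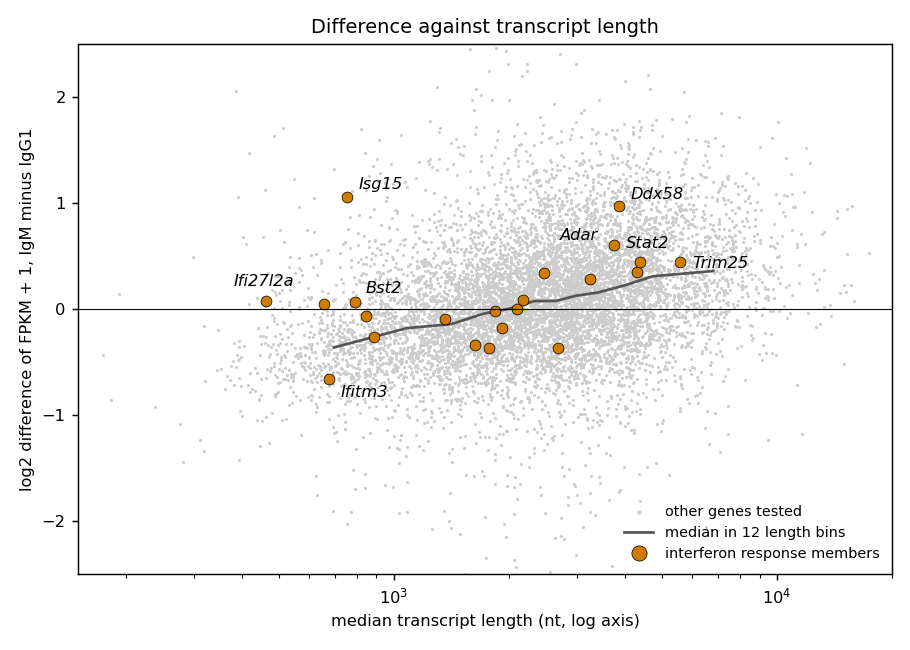
Log2 difference of FPKM + 1, IgM minus IgG1, against median transcript length on a log axis, for the 22 members (orange) and the other genes tested with a known length (grey, 21 of the 8765 lie outside the axes), with the median in 12 length bins as a line. Isg15 at 756 nt lies at 1.06, above the line for its length, and Ddx58, Adar, Stat2 and Trim25 lie where long transcripts had positive medians.

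The rest of the pathway was read from 107 further genes, of which 70 passed the filter. Of these 0 were higher and 1 was lower in IgM cells by limma, beside 1.76% and 4.26% of all genes tested, and 8 and 7 at an unadjusted p under 0.05, beside 10.2% and 11.9% of all genes tested. The one past the threshold was Cnp, an interferon-induced phosphodiesterase gene, with 157 ± 6.19 FPKM in IgM and 246 ± 11.0 FPKM in IgG1 cells (SD, n = 3 each; log2 difference -0.65, SE 0.11, limma adjusted p = 0.00980), and no single omitted library ended the call (largest adjusted p 0.0471). It ended with no filter, with no intensity trend and after rescaling without Jchain. All 9 ligand genes examined, among them Ifng, Ifnb1 and Ifna4, were listed at 0 in all 6 libraries. The groups did not overlap in 11 of the 70 (15.7%) with IgM higher and in 8 (11.4%) with IgM lower, near the 13.5% and 13.7% of all genes tested. The median log2 difference of the 70 was 0.11, beside 0.05 over all genes tested.

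Receptor genes were measured in both groups. Ifnar2 averaged 167 ± 8.03 FPKM in IgM and 122 ± 31.6 FPKM in IgG1 cells (SD, n = 3 each), with a log2 difference of 0.48 (95% interval 0.09 to 0.86, limma adjusted p = 0.138), and it passed without IgG1 library 1 (difference 0.65, adjusted p = 0.0470). Over all single omissions the difference reached down to 0.27 and the limma adjusted p up to 0.372. Its exons overlap those of Gm21970. Ifnar1 averaged 15.2 ± 1.48 FPKM in IgM and 10.2 ± 1.69 FPKM in IgG1 cells (0.54, limma adjusted p = 0.286). The IgM libraries lay above the IgG1 libraries for both chains of the type I receptor. Ifngr1 averaged 10.8 ± 3.09 FPKM in IgM and 6.71 ± 2.93 FPKM in IgG1 cells (0.65, limma adjusted p = 0.351), and Ifngr2 averaged 16.7 ± 4.36 FPKM in IgM and 15.9 ± 2.61 FPKM in IgG1 cells (0.05, adjusted p = 0.938), both with overlapping groups.

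Downstream, the kinase gene Jak1 averaged 15.5 ± 2.90 FPKM in IgM and 10.2 ± 2.12 FPKM in IgG1 cells (log2 difference 0.57, limma adjusted p = 0.287), without overlap between the groups, and its exons overlap those of Raver2 on the opposite strand. Tyk2 averaged 27.0 ± 6.72 FPKM in IgM and 28.1 ± 4.86 FPKM in IgG1 cells (-0.07, limma adjusted p = 0.901). Irf3, the factor that starts type I interferon transcription, averaged 28.8 ± 5.92 FPKM in IgM and 36.2 ± 7.88 FPKM in IgG1 cells (-0.31, limma adjusted p = 0.479). The groups of Tyk2 and Irf3 overlapped. After the length and GC correction the differences of Jak1, Ifnar1 and Ifnar2 were 0.23, 0.34 and 0.38, with limma adjusted p of 0.761, 0.556 and 0.265.

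The most abundant of the further targets was Ly6e, a surface protein gene, at 1512 ± 100 FPKM in IgM and 1693 ± 248 FPKM in IgG1 cells (log2 difference -0.15, limma adjusted p = 0.485). Shisa5 followed at 409 ± 34.7 FPKM in IgM and 387 ± 55.0 FPKM in IgG1 cells (0.09, adjusted p = 0.747 with limma). Zbp1, the sensor of Z-form nucleic acids, averaged 225 ± 9.85 FPKM in IgM and 306 ± 34.0 FPKM in IgG1 cells, and its difference of -0.44 missed the threshold (limma adjusted p = 0.0538). Unc93b1, the chaperone of endosomal Toll-like receptors, averaged 230 ± 30.7 FPKM in IgM and 303 ± 15.1 FPKM in IgG1 cells (-0.40, limma adjusted p = 0.0844). For Zbp1 and Unc93b1 every IgM library lay below every IgG1 library.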

How the data were processed

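RNA of 3 IgM and 3 IgG1 libraries of sorted mouse splenic plasma cells was extracted with the miRNeasy Micro kit and amplified as full-length cDNA (SMART-Seq HT, Nextera XT), per the labels' protocols. The deposited values are FPKM per gene symbol, per the file headers. Cuffdiff, Cufflinks 2.2.1, Bowtie2 2.3.5.1 and TopHat2 2.1.1 are named with build mm10, per the submitters' processing notes. FPKM divides by transcript length and depth, so a shift in composition or in coverage of long transcripts moves it. Counts were not used here. The depths were estimated from the smallest FPKM step times transcript length and are approximate.

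FPKM were used as deposited. Genes at 1 FPKM or more in 3 or more libraries (9087) were fitted on log2(FPKM + 1), IgM minus IgG1, with limma 3.58.1 in R 4.3.3 (eBayes with an intensity trend), two-sided, with Benjamini-Hochberg adjustment over all genes tested and a threshold of 0.05. Differences on this scale understate the change of low genes. Folds are ratios of mean FPKM. Lengths, GC content, positions and exon overlaps came from the GENCODE vM21 annotation of GRCm38, and promoters from RefSeq. Exon overlaps were looked for among protein-coding genes only. Summaries used Python 3.11.15, pandas 2.3.3 and matplotlib 3.10.9.

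The members and gene lists were chosen with earlier results of these data known. Full statistics were given for members past the threshold, the 6 with the highest means and those whose groups did not overlap. Of the 107 further genes, those past the threshold, a fixed set of receptor and signalling genes and the 4 with the highest means were named, and some items are not reported here. Irf1, Irf7, Ifi27, Usp18 and the GTPases that passed the filter were picked out for their spread after their values were seen. Alternatives changed the pseudocount, filter, scaling, trend, weights, length and GC correction, replicate block and the libraries included.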

Additional observations from a re-analysis of the deposited data

How the results depend on the processing

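With 3 libraries per group, 1 library could end a call. The number of the 22 members higher in IgM cells was 1, and it was 2 with a pseudocount of 5, a filter at 5 FPKM, quantile normalization, rescaling without Jchain and the length and GC correction, 0 with no filter and with no intensity trend, and 0 to 2 when each library was left out. The number lower was 1, and it was 0 with no filter, quantile normalization, rescaling, no trend and the length and GC correction, and 0 to 1 when each library was left out. Of the 70 further pathway genes, 0 were higher, with 1 under a pseudocount of 5 and a filter at 5 FPKM (Irf8), 2 under rescaling (Ifnar2 and Irf8), and 0 to 3 when each library was left out (3 without IgG1 library 1: Ifnar2, Irf8 and Tlr7). The number lower was 1, with 2 under a pseudocount of 5, a filter at 5 FPKM, median centring and array weights (Cnp and Zbp1), 0 with no filter, rescaling and no trend, and 1 to 2 when each library was left out. With no filter 14922 genes were tested and 4 were higher and 2 lower over all genes, and with no trend 5 and 3. Rescaling without Jchain set the library totals counted without that gene equal, where the deposited totals were larger in IgG1 cells. It moved the median over all genes to 0.25, from which its larger differences start. It called 393 genes higher and 177 lower, against 160 and 387. Quantile normalization called 200 higher and 188 lower, and median centring 118 and 489. Omitting IgM library 1 left 30 and 78, and omitting IgG1 library 1 gave 251 and 394. Some log2 differences near 0 turned sign: Isg20 was 0.24 under quantile normalization, 0.16 under rescaling and 0.26 under the length and GC correction. Bst2 was -0.0007 under median centring and -0.01 to 0.14 when each library was left out, and Ifi27l2a was -0.01 to 0.16. Ifi35 was 0.14 under rescaling, 0.05 under the length and GC correction and -0.20 to 0.05 when each library was left out. The cause was not tested. Over 12 named members and 17 settings, 173 of 204 values kept their direction and their side of the threshold, 16 lost the call, 6 gained it and 9 turned sign. Whether the replicate numbers pair the libraries is not stated. Same-numbered libraries had correlations of deviations of 0.101, -0.031 and -0.001, and differently numbered ones had -0.098 to 0.096. Deviations from a mean of 3 libraries per group cannot settle whether the libraries were paired. With the replicate number as a block, 154 genes were higher and 432 lower, and the counts among the members (1 and 1) and the further pathway genes (0 and 1) were the same. Of the 17 genes that did not pass the filter, those above 0 in at least 1 library entered only the fit with no filter.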
